A study of Mus musculus with 2 samples.

Results

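Replication origin licensing was examined through 10 genes: those for the helicase subunits Mcm2 to Mcm7, the loading factors Cdc6 and Cdt1, the Cdt1 inhibitor geminin (Gmnn) and the origin recognition subunit Orc1. Members were all probe sets of the value table annotated to exactly 1 of these genes, which gave 26 of 45101 probe sets and 10 of 18194 named genes. No probe set shared between several genes named a member. The cells were mouse embryonic fibroblasts (MEFs), connective tissue cells cultured from mouse embryos, of 2 genotypes. Cells of the first carried p27delta51, an allele of Cdkn1b known for encoding p27 without its amino-terminal, kinase-inhibiting part, and the control cells were wild type. Both had grown in 10% fetal bovine serum and were then held without serum for 72 h, which is meant to take fibroblasts out of the division cycle. RNA of each genotype was read on 1 Affymetrix array, so no difference has a replicate check, no test was possible, and all values describe these 2 arrays. The strain, the age of the embryos and the number of embryos or cultures behind each array are not given in the sources used here.

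Licensing is the step that prepares DNA for a single round of copying. In G1 the origin recognition complex, of which Orc1 is a subunit, sits on origins, and Cdc6 and Cdt1 help it load the ring of Mcm2, Mcm3, Mcm4, Mcm5, Mcm6 and Mcm7 around the double helix. The ring later becomes the core of the replicative helicase. Geminin binds Cdt1 after S phase has begun and blocks further loading. Cells that leave the cycle are known to lose licensing proteins, Cdc6 and the MCM proteins among them, and genes of this group are textbook targets of E2F transcription factors, which are restrained when CDKs are inhibited.

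All 10 licensing genes were brighter in p27delta51 than in wild type, and 6 of them, Cdt1, Mcm5, Mcm6, Mcm4, Mcm2 and Mcm3, by 2-fold or more. Each gene was read by its brightest probe set. Genes were kept where that probe set reached a brightness limit, a mean signal of 22.2 that is the median of all probe sets. Among 11163 kept genes, 10.7% were 2-fold or more higher in p27delta51, 8.78% were 2-fold or more lower, and 55.6% were higher by any amount. The median log2 difference, p27delta51 minus wild type, was 1.13 over the 10 genes and 0.079 over all kept genes, whose quartiles lay at -0.33 and 0.51. All 10 genes passed the limit, and none depended on 1 array for it, since both signals of each brightest probe set exceeded 22.2. In whole cultures, fewer cells that express a gene and less of its RNA per cell cannot be told apart. All but Cdt1 of these 6 lay close to the 2-fold line, between 1.08 and 1.37 on the log2 scale. When the arrays were scaled to the spike-in controls, a setting added after the data were seen, the median of all kept genes became -0.30. The licensing median became 0.76, and only Cdt1 remained past 2-fold. This scaling shifts all genes by the same amount, so the licensing median lay 1.05 above that of all kept genes with or without it by construction. Over all kept genes, 1200 were 2-fold or more higher and 980 lower without that scaling, and 681 and 1660, or 29.1% higher, with it.

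As checks on the arrays, of the 2 Cdkn1b probe sets the brighter gave 1016 in p27delta51 against 542 in wild type and the dimmer one 1.6 and 62.0. Their position against the deleted part is not known here, so neither checks the allele. The 18 hybridisation spike-in controls were all brighter on the p27delta51 array, by a median of 0.38 on the log2 scale. The 5′ and 3′ control probe sets of Gapdh differed by 0.37 and 0.38, and those of Actb by -0.01 and 0.16. Of 10 fibroblast markers, all passed the brightness limit on the mean of both arrays, Thy1 and Dcn only through their wild type signals. Their summed signal was 53647 in p27delta51 against 49062 in wild type. Of the 10, 5 were higher, and the median log2 difference was 0.034. Single markers moved far in either direction: Pdgfra gave 529 against 138, whereas Thy1 gave 18.6 against 279 and Dcn, the decorin gene, 21.3 against 2817. Of 6 markers each, 2 macrophage, 0 endothelial and 2 epithelial markers passed. Summed signals were 192 and 138 for macrophage, 40.2 and 64.5 for endothelial and 125 and 252 for epithelial markers, with the p27delta51 value first. At or below the control floor were 2 of the macrophage markers on each array. For endothelial markers this number was 5 for p27delta51 and 3 for wild type, and for epithelial markers 3 and 2. The leukocyte marker Ptprc and the endothelial markers Pecam1 and Cdh5 lay below the control floor on both arrays. In contrast, Csf1r gave 56.5 and 65.0, Cd14 86.9 and 32.2, and Krt19 13.7 and 177, with the p27delta51 value first. All 3 bright Csf1r probe sets were lower in p27delta51, with log2 differences from -0.20 to -4.27. Krt19 passed the brightness limit only through its wild type signal. The control floor, the highest signal of 27 bacterial control probe sets, was 14.8 for p27delta51 and 11.8 for wild type.

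The promoters of the members are shown because the genes are known to be controlled together. RefSeq promoter windows on GRCm38.p6, running from 250 bases before to 50 bases after a transcript start, were present for 8 of the 10 genes, with 9 windows because Mcm7 had 2 starts. Gmnn and Mcm4 had no entry. Capitals mark matches to an E2F motif, searched on both strands as TTTGGCGC, TTTCGCGC, TTTCCCGC or TTTGCCGC. The windows are written 5′ to 3′ on the strand of the gene and lie at chr8:122567765-122568064 (plus strand) for Cdt1, chr8:75109259-75109558 (plus strand) for Mcm5, chr1:128359656-128359955 (minus strand) for Mcm6 and chr6:88898731-88899030 (minus strand) for Mcm2.
Cdt1: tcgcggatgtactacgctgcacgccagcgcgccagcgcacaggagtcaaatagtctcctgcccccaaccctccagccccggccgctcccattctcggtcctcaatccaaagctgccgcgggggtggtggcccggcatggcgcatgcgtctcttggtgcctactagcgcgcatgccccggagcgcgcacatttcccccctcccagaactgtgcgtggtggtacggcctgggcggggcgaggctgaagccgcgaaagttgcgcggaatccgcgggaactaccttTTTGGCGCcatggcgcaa
Mcm5: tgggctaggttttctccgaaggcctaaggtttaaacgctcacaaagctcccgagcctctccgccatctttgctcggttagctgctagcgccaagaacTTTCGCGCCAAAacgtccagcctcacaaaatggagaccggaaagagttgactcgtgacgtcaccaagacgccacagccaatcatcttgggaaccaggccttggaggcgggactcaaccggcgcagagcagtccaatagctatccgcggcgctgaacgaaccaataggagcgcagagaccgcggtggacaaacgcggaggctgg
Mcm6: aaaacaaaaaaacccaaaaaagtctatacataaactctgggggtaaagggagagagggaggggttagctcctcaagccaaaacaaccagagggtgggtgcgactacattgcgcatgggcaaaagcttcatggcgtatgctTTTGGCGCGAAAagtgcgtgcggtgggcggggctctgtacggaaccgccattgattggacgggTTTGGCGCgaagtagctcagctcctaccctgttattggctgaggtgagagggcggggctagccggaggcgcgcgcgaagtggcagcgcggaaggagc
Mcm2: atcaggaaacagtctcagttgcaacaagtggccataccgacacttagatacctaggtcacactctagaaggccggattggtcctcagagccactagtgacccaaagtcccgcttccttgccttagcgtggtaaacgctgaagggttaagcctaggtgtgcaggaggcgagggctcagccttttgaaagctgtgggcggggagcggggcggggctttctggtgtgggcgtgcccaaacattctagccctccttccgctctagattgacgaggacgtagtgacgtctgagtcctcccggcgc

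An E2F match was present in 7 of the 8 members with an entry, or in 7 of their 9 windows, whereas 2.26% of all 32851 windows in the promoter table held one. Mcm2 was the member without a match. In Mcm5 and in Mcm6, matches on opposite strands overlapped to form 1 site, at 153 and 110 bases before the start, and Mcm6 held a further match 47 bases before the start. In Cdt1 the match began 33 bases after the start. The matches of the remaining members are shown with 8 flanking bases where the window allowed, to let their cores be compared.
Mcm3, 20 bases after the start: cttccgtgGCGGGAAAacttggga
Mcm3, 39 bases after the start: tgggaagtTTTGGCGCcaag
Mcm7, 165 bases before the start: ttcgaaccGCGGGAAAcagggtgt
Mcm7, 17 bases after the start: tgacgacgTTTCGCGCcaatttcg
Cdc6, 138 bases before the start: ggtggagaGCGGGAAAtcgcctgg
Orc1, 27 bases before the start: ggttagtgGCGCGAAAagttttct

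The CCAAT box, searched as CCAAT on both strands, was found in 6 of the 8 members and 7 of the 9 windows, against 37.4% of all windows in the table. All 5 MCM genes with an entry and Orc1 held it, and Cdc6 and Cdt1 did not. In Mcm7 the match after the start shares a base with the E2F match. The CHR element, an element known from promoters of mitotic genes and searched as TTTGAA or TTCGAA, was found in Mcm2 and Mcm7 only, in 2 of 9 windows against 19.2% of all windows. Letter matches describe these windows and say nothing of binding in these cells.

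**Figure D1:**
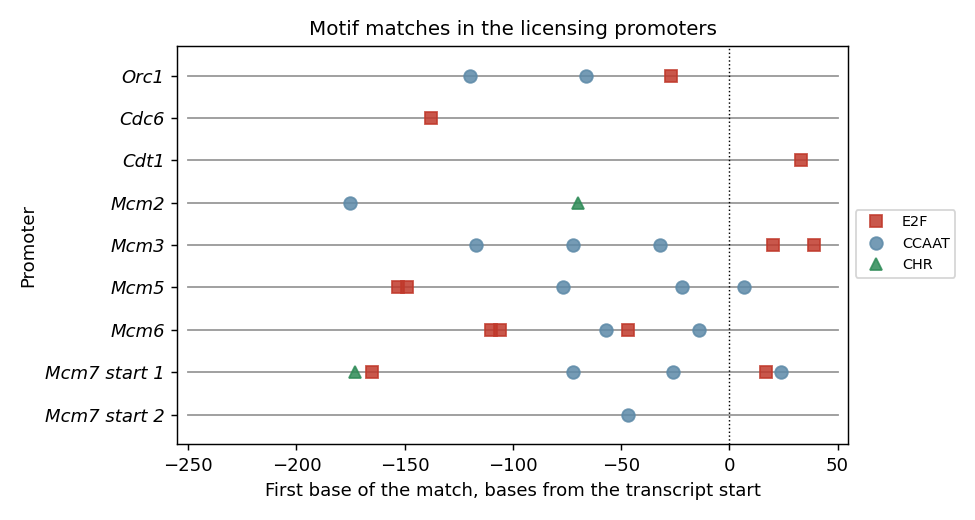
Positions of E2F, CHR and CCAAT matches in the 9 promoter windows of 8 licensing genes. The horizontal axis gives the first base of each match in bases from the transcript start (dotted line), and each grey line is 1 window. E2F matches lie on both sides of the start, from 165 bases before it to 39 bases after it, and Mcm2 and the second Mcm7 window hold none.

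Orc1 (chromosome 4, 108575705 to 108616030), a subunit of the complex that marks origins, was read by 2 probe sets. Its brighter probe set gave 55.5 in p27delta51 against 33.5 in wild type, and its log2 difference was 0.73. The second gave 42.9 and 30.1, a difference of 0.51. Both were higher in p27delta51 by less than 2-fold, at signals within a few times the control floor. The authors' deposited table calls both unchanged, with ratios of 0.7 and 0.6 on the log2 scale. With 32 added to the signals, the difference of Orc1 was 0.42.

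Cdc6 (chromosome 11, 98907709 to 98923942), the ATPase that brings the MCM ring to origins, was read by a single probe set. It gave 118 in p27delta51 against 80.7 in wild type, and its log2 difference was 0.55, a 1.47-fold difference and the smallest among the members. Of all kept genes, 76.9% had a lower difference, which puts Cdc6 just above the upper quartile. Cdc6 carried an increase call in the authors' deposited table, at a log2 ratio of 0.8.

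Cdt1 (chromosome 8, 122568015 to 122573130), which brings MCM proteins to ORC and Cdc6, differed more than any other member. Its brightest probe set gave 1377 in p27delta51 against 271 in wild type. The log2 difference was 2.35, larger than that of 97.7% of kept genes. A second Cdt1 probe set gave 611 in p27delta51 against 141 in wild type, and its log2 difference was 2.11. The 2 readings lay 0.23 apart. On brightest probe sets the gap from Cdt1 to Mcm5, the next gene, was 0.97. Another bright Mcm5 probe set differed by 1.83, which lies much nearer to the lower Cdt1 reading. The remaining Cdt1 probe set gave 0.6 and 3.9, under the control floor on both arrays, and has no usable fold. A mean over all 3 probe sets, that one included, was 0.59. In the authors' deposited table the first 2 carried increase calls at log2 ratios of 2.2 and 2.3, and the remaining one a no-change call.

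Gmnn (chromosome 13, 24751845 to 24761937) encodes geminin, the protein that holds Cdt1 inactive. Its single probe set gave 424 in p27delta51 against 214 in wild type, and its log2 difference was 0.99, a 1.98-fold difference just short of the 2-fold line. The difference of Cdt1 thus exceeded that of its inhibitor by 1.36 on the log2 scale, so the signal ratio of Cdt1 to Gmnn was 2.56 times as high in p27delta51 as in wild type. The median SD between bright probe sets of 1 gene, over 5318 genes with at least 2, was 0.23. This spread lies between readings of the same RNA and says nothing of the spread between cultures. Gmnn carried an increase call in the authors' deposited table, with a ratio of 1.1 on the log2 scale.

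The 6 MCM genes encode the subunits of 1 ring in equal number. Over their brightest probe sets the log2 difference was 1.17 ± 0.17 (mean and SD over 6 genes, which are not replicates). All bright MCM probe sets together ranged more widely, from 0.72 to 1.83, with the highest reading in Mcm5. Mcm2 (chromosome 6, 88883474 to 88898780) gave 549 in p27delta51 against 241 in wild type, and its log2 difference was 1.19. Its second probe set gave 409 and 248, a difference of 0.72. For Mcm2 the choice of probe set therefore decides which side of 2-fold it lies on, and the mean of both was 0.95.

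Mcm4 (chromosome 16, 15623897 to 15637400), whose product forms the catalytic core of the ring with those of Mcm6 and Mcm7, gave 1063 in p27delta51 against 447 in wild type, and its log2 difference was 1.25. Its second probe set gave 764 and 415, a difference of 0.88. Mcm6 (chromosome 1, 128331575 to 128359705) gave 1318 and 549, a difference of 1.26, and on its second probe set 600 and 325, a difference of 0.88. Both genes thus had 1 reading on each side of 2-fold, and in both the second reading came from a probe set with the x suffix, which marks probes also matching other transcripts. The brightest probe set of Mcm5 carries the same suffix. The remaining Mcm6 probe set gave 0.3 and 5.4, under the floor on both arrays, and a mean over all 3 Mcm6 probe sets turned negative, at -0.67, through it. The brightest probe sets of Mcm4 and Mcm6 carried increase calls in the authors' deposited table, at 1.0 and 1.2.

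Mcm7 (chromosome 5, 138164583 to 138172111) had 4 bright probe sets. The brightest gave 1736 in p27delta51 against 940 in wild type, and its log2 difference was 0.89. The others gave 856 and 388, 541 and 282, and 437 and 212, with differences of 1.14, 0.94 and 1.04. All 4 readings straddled the 2-fold line within 0.26 of each other. With the s and x probe sets left out, Mcm7 was read at 1.14 and passed 2-fold, which made 7 members past it.

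Mcm3 (chromosome 1, 20802966 to 20820312) also had 4 bright probe sets. The brightest gave 603 in p27delta51 against 286 in wild type, and its log2 difference was 1.08. The other 3 differed by 1.02, 0.88 and 1.16, so 3 of the 4 readings passed 2-fold. The remaining probe set, under the brightness limit, gave 20.3 and 17.0.

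Mcm5 (chromosome 8, 75109468 to 75128439), whose product forms the gate of the ring with that of Mcm2, had the largest difference of the ring on its brightest probe set. That probe set gave 1081 in p27delta51 against 417 in wild type, and its log2 difference was 1.37. The others gave 513 and 144, a difference of 1.83, and 36.2 and 12.7, a difference of 1.51. The last passed the brightness limit only through its p27delta51 signal and is left out of the contrast and the probe set counts that follow. The other 2 Mcm5 readings, at 1.37 and 1.83, lay above the 14 bright readings of the other MCM genes, at 0.72 to 1.26. This contrast was picked out after the values were seen. With shared probe sets left out, Mcm5 was read at 1.83. Among the other 5 MCM genes the ranges over probe sets overlapped, so their order could not be told from these readings. The authors' deposited table gives log2 ratios of 1.5, 1.6 and 1.1 for the 3 Mcm5 probe sets, the last of them the dim one, against 0.9 to 1.2 for those 14 readings.

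**Figure D2:**
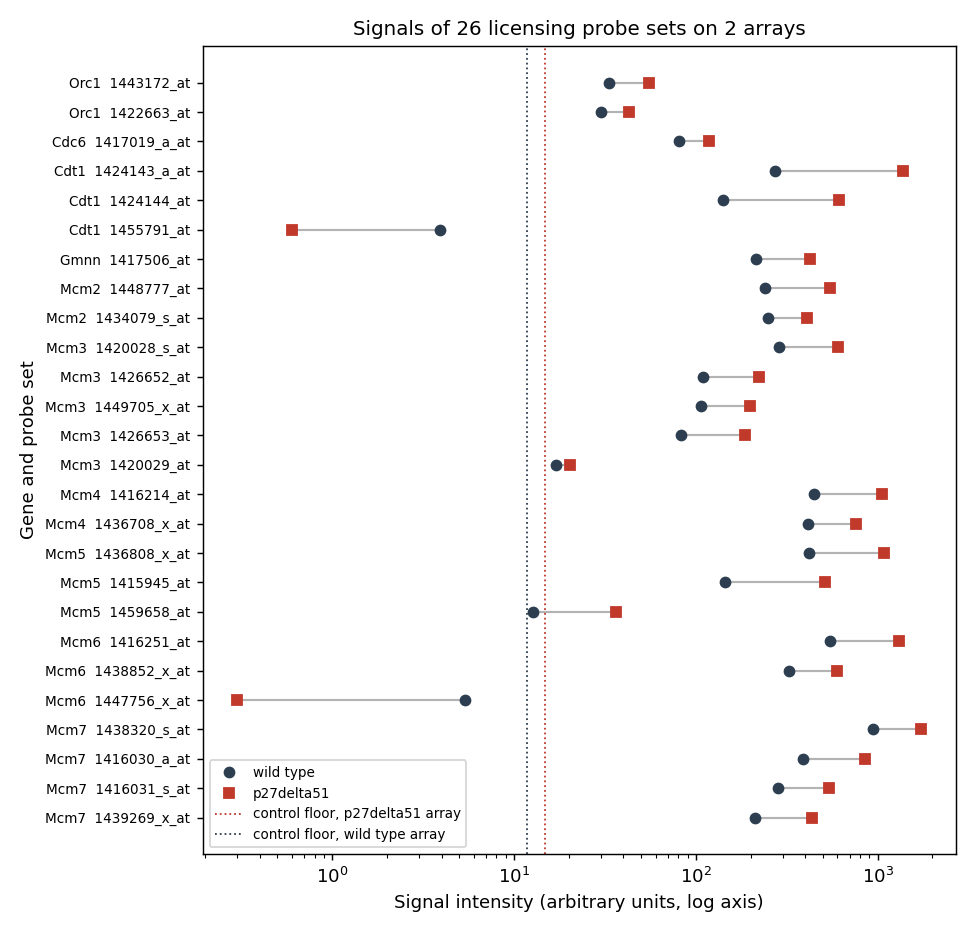
Signal intensity (arbitrary units, log axis) of the 26 licensing probe sets, with a circle for the wild type array and a square for the p27delta51 array. Dotted lines mark the control floor of each array, 14.8 for p27delta51 and 11.8 for wild type. The p27delta51 square lies to the right for 24 of 26 probe sets, and the exceptions, in Cdt1 and Mcm6, lie below both floors.

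Of the 26 probe sets, 23 reached the brightness limit on the mean of both arrays. One of these, of Mcm5, did so only through its p27delta51 signal. The other 22 were all higher in p27delta51, 12 of them by 2-fold or more. Among 20141 bright named probe sets on the arrays, 53.9% were higher by any amount and 9.95% by 2-fold or more. The log2 differences of the 22 ranged from 0.51 to 2.35. Of the 22, all but the 2 of Orc1 carried an increase call in the authors' deposited table, against 23.3% of bright named probe sets. The call compares the 2 arrays, not the genotypes. Probe sets of 1 gene are repeat readings of the same RNA and not independent samples.

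**Figure D3:**
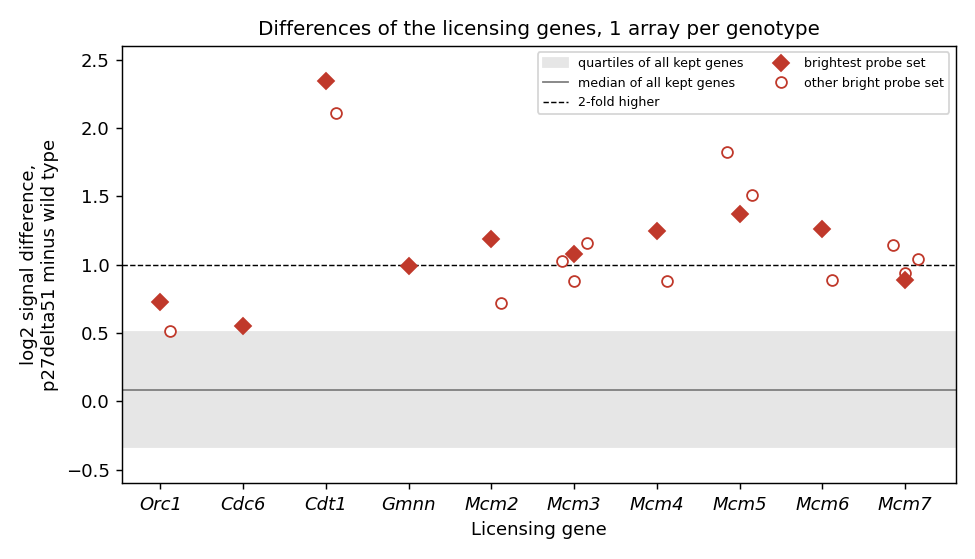
Log2 signal difference, p27delta51 minus wild type, of the 23 bright licensing probe sets by gene, with a diamond for the brightest probe set of each gene and an open circle for the others. The grey band spans the quartiles of all kept genes, -0.33 to 0.51, and the dashed line marks 2-fold. Cdt1 stands above 2 and the diamonds of the MCM genes lie between 0.89 and 1.37. For Mcm5, 1 open circle passed the brightness limit only through its p27delta51 signal.

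The neighbouring steps of origin use were described through 5 lists that hold 44 genes, of which 41 were measured and kept. Of the 41, 10 were 2-fold or more higher in p27delta51, 30 lay between and 1 was 2-fold or more lower. Among all kept genes 10.7% were 2-fold or more higher and 8.78% lower. The 41 had a median log2 difference of 0.65, below that of the licensing genes and above the 0.079 of all kept genes. No test of the difference between lists was possible.

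The other subunits of the origin recognition complex were mostly near the background. Of 5, only Orc3 passed 2-fold upward, against 10.7% of all kept genes. It gave 326 in p27delta51 against 146 in wild type, with 3 of 3 bright probe sets past 2-fold. Orc6, which encodes the smallest subunit, gave 367 and 210. Orc2, Orc4 and Orc5 gave 160 and 144, 355 and 410, and 302 and 259, and the median of the 5 was 0.22. Orc2 and Orc4 each had bright probe sets on both sides of 0. Among MCM paralogs, MCM partners and factors of origin chromatin, 1 of 7 kept genes passed 2-fold, a share near the 10.7% of all kept genes. It was Lrwd1, which encodes an ORC-associated protein, at 781 and 390, just past the line and under it when the arrays were centred. Mcm8 and Mcm9, paralogs known for DNA repair, differed by 0.77 and 0.47, Mcmbp by 0.41 and Kat7, an acetyltransferase gene, by 0.07. The second bright probe set of Mcm9 differed by -0.02, and 1 of 3 bright Kat7 probe sets by -0.61. The median of the 7 was 0.41.

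Genes that turn the loaded ring into an active helicase were mostly higher in p27delta51, by less than 2-fold. Of 12 kept genes, 3 passed 2-fold upward and 0 downward, against 10.7% and 8.78% of all kept genes. The median log2 difference of the 12 was 0.83. Gins1, a subunit of the GINS complex that binds the ring, gave 167 in p27delta51 against 59.0 in wild type, 2.83-fold higher. Ticrr, a gene for a factor that recruits Cdc45, gave 71.5 and 27.1, although its second bright probe set differed by 0.18. Mcm10 gave 118 and 46.2, a difference of 1.35, while its second bright probe set went the other way at -0.56. Cdc45, which joins GINS and the MCM ring in the helicase, gave 91.8 and 51.7. Mtbp, the partner of Ticrr, gave 110 on each array, and its difference of 0.01 turned negative when the arrays were centred, quantile normalized or scaled to the spike-in controls. Gins4, another GINS subunit, differed by 0.26, and by -0.12 with the spike-in scaling.

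Kinases and cyclins that act on origins were higher in p27delta51 with 1 exception. Of 7 kept genes, 3 were 2-fold or more higher and 1 was 2-fold or more lower. Among all kept genes these shares were 10.7% and 8.78%, so the count of lower genes was near the background. Ccna2, the cyclin A2 gene, gave 771 in p27delta51 against 283 in wild type, Ccne2 gave 137 and 56.9, and Cdk1 gave 1387 and 629. Ccne1 alone was lower, at 62.4 and 212, a log2 difference of -1.77, and its second bright probe set differed by -1.06. Ccne1 carried a decrease call in the authors' deposited table, at a log2 ratio of -0.9. Cdc7 and Dbf4, which together form the kinase that phosphorylates the MCM ring, differed by 0.44 and 0.42, and Cdk2 by 0.48.

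Among genes that act in the turnover of Cdt1 or Cdc6, 2 of 10 passed 2-fold upward, against 10.7% of all kept genes. The median log2 difference of the 10 was 0.60. Dtl, which encodes the adaptor that directs Cdt1 to the Cul4 ubiquitin ligase in S phase, gave 220 in p27delta51 against 108 in wild type, a difference of 1.03, with 5 of 5 bright probe sets higher, but 0.96 when the arrays were centred, which left 1 of the 10 past 2-fold. Ccnf, the cyclin F gene, gave 222 and 61.4, a difference of 1.86. The core genes of the Cul4 ligase, and Skp1, were inside the quartiles of all kept genes. Ddb1 differed by 0.01, Cul4a by 0.29, Cul4b by -0.11 and Skp1 by -0.06. Skp2, the adaptor that directs both Cdt1 and p27 to destruction, gave 361 and 274, a difference of 0.40. That was the lowest of its 6 bright probe sets, which were all higher, by up to 0.88. Cul1, the scaffold that Skp2 joins, gave 1079 and 621, a difference of 0.80.

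Nearly all genes of the replication fork and the mitotic list were also higher in p27delta51. Of 20 replication fork genes, 19 were higher, with a median log2 difference of 1.05. Of the 20, 11 passed 2-fold upward, against 10.7% of all kept genes, and 0 downward. The count past 2-fold was 4 with the spike-in scaling, where the median was 0.67, and 6 when all probe sets of a gene were averaged. Of 13 mitotic markers with a name here, all 13 were higher and 10 passed 2-fold, against the same 10.7%. The 13 had a median of 1.17 and a summed signal of 7896 in p27delta51 against 3306 in wild type. With the spike-in scaling 12 were higher and 5 passed 2-fold, with a median of 0.80, and Foxm1 turned from 0.36 to -0.01. Before scaling, that was the lowest of 3 bright Foxm1 readings, which reached 1.05. Mki67, a marker of cycling cells, gave 765 and 243. Top2a gave 1177 and 522, although its second bright probe set differed by 0.19. The summed signal of the 10 licensing genes was 8325 and 3479. The part of a different share of cycling cells in the licensing values was not tested.

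**Figure D4:**
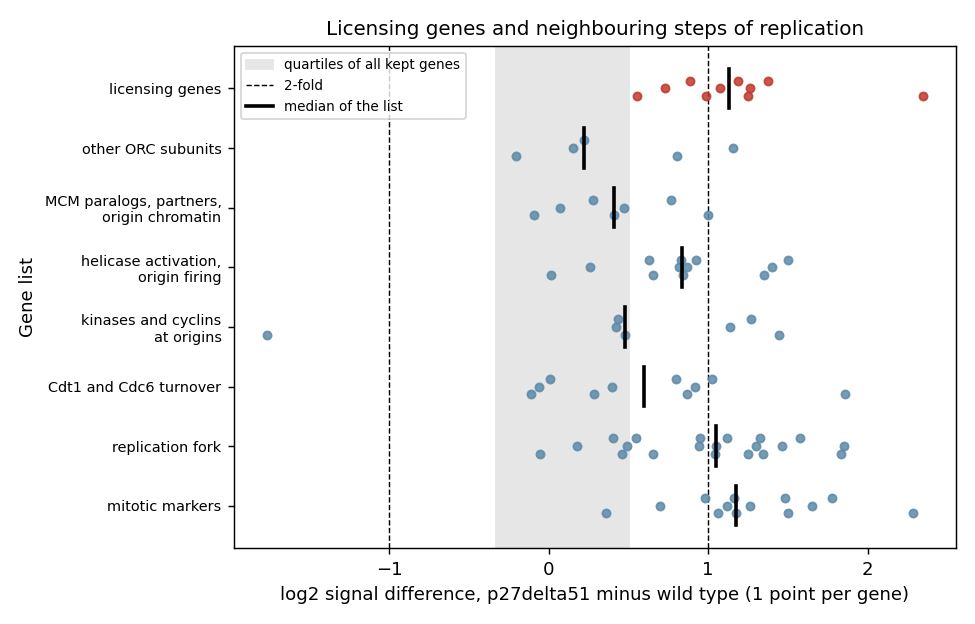
Log2 signal difference, p27delta51 minus wild type, for the licensing genes and 7 other lists, 1 point per kept gene, with a black bar at the median of each list. The grey band spans the quartiles of all kept genes and dashed lines mark 2-fold in either direction. The licensing median of 1.13 lies near those of the replication fork (1.05) and mitotic markers (1.17), and the median of the other ORC subunits (0.22) lies inside the band.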

How the data were processed

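Biotin-labelled RNA of each genotype was read on 1 Affymetrix array, per the labels' protocols. The deposited signal intensity values are linear. RMA and affy stand in the tools listed per the submitters' processing notes, with no version or role; RMA gives log2 values, so the program behind the linear signals is unknown here. A second deposited table holds the authors' log2 ratio, change call and change p-value per probe set, per the file headers. The call and the p-value compare the 2 arrays, not the genotypes. The calls are quoted here, and the p-value is not.

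Of 45101 probe sets, 34958 carried 1 gene symbol, updated by gene identifier to GRCm38.p6, and 932 carried several. Log2 was taken of the signals, with 0.1 in place of 0. Each gene was read by its probe set with the highest mean signal, and genes with a mean of 22.2 or more, which is the median over probe sets, were kept. All sample columns were used, so the number of unused ones was 0. With 1 array per genotype no test, SD over samples or replicate check exists, and the number of arrays limits the precision. The members, lists and motifs were chosen with earlier results of these data known. Named genes were all members, any gene of the 5 pathway lists or the replication fork and mitotic lists, and Cdkn1b, Actb and Gapdh. Some of the fibroblast, macrophage, endothelial and epithelial markers were also named as checks. Gene names were not searched for likeness of pattern, since 2 arrays give 1 difference per gene. The calculations were tested on simulated arrays. They ran in Python 3.11.15 with pandas 2.3.3. Of the 13 alternatives tried, 3 were added after the data were seen.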

Additional observations from a re-analysis of the deposited data

Results flagged for a closer look

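The spike-in controls lie outside the gene comparison and carried a signal difference. Their median log2 difference was 0.38, p27delta51 minus wild type, with 18 of 18 probe sets higher on the p27delta51 array. With 1 array for each genotype, these probe sets are repeat readings of the same 2 hybridisations. What part this offset has in the licensing values was not tested, and the values scaled to it are given with the other settings.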

How the results depend on the processing

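Settings added after the data were seen were scaling to the spike-in controls, the mean of bright probe sets, and leaving out probe sets shared with other transcripts. Counts were held to a factor of 1.5, and single genes and medians to the SD of 0.23 between probe sets. No paired analysis was possible because each genotype has 1 array, and no replicate could be left out. Licensing genes past 2-fold upward numbered 6; they numbered 3 with the mean of all probe sets, 1 at a 3-fold threshold and 1 with spike-in scaling, where their median was 0.76 instead of 1.13. Under the other settings this count was 5 to 9, and 0 were 2-fold or more lower under any of the 13. The mean of all probe sets takes in readings under the floor; with it Mcm6 reversed to -0.67, Pola2 to -0.50, Cdk2 went from 0.48 to -1.42 and Pole2 from 0.65 to -1.15, and Cdt1 was 0.59. All other values of single licensing genes, 89 of 90 over 9 settings, stayed above 0. Among the 41 pathway genes, 10 were 2-fold or more higher; this count was 5 with 32 added, 22 at a 1.5-fold threshold, 1 at a 3-fold threshold, 5 with the upper-quartile filter and 4 with spike-in scaling. The count of lower pathway genes was 2 with the mean of all probe sets, 0 with the authors' deposited ratio and 0 with the upper-quartile filter. Their median was 0.41 with the upper-quartile filter and 0.28 with spike-in scaling. The cause of these shifts was not tested beyond what each setting does by construction. Over all genes, 1200 were higher and 980 lower; spike-in scaling gave 681 and 1660, no filter 2805 and 2581, the upper-quartile filter 559 and 461, 32 added 752 and 692, a 1.5-fold threshold 2422 and 1775, and a 3-fold threshold 533 and 581.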

Other observations

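The motifs counted in the licensing promoters were also counted over all kept genes with a promoter entry. Of 441 kept genes with an E2F match, 12.5% were 2-fold or more higher in p27delta51, against 10.5% of 8627 without one, and the median log2 differences were 0.18 and 0.080. Of 1448 kept genes with a CHR match, 15.5% were 2-fold or more higher, against 9.66% of 7620 without one. For the CCAAT box the shares were 10.9% and 10.3%. These are descriptions of 2 arrays and genes are not independent replicates.

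Outside the licensing genes, E2F matches were found in the promoters of Orc3, Mcm8, Mcmbp, Gins3, Topbp1, Cdk1, Cdk2 and Dtl. Of these 8, Orc3, Cdk1 and Dtl passed 2-fold and the other 5 did not, while 12.5% of all kept genes with a match passed it upward. Dtl differed by 0.96 when the arrays were centred. In the replication fork list 6 of 17 genes with an entry held one, and in the list of mitotic markers 0 of 12 did. At a share of 2.6% over all genes, a list of 12 would mostly hold none. The median log2 differences of the 2 lists were 1.05 and 1.17, and 0.67 and 0.80 with the spike-in scaling. The part of E2F matches in these differences was not tested.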
